A study of Homo sapiens with 24 samples.

Results

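RES-A cells are a derivative of the androgen-sensitive prostate cancer line LNCaP that was raised by long exposure to agents against the androgen receptor and is resistant to enzalutamide (ENZ). The effect of the androgen dihydrotestosterone (DHT) in the presence of ENZ was examined by comparing the 3 RES-A libraries given 10 nM DHT with 10 µM ENZ (DHT+ENZ) with the 3 RES-A libraries given 10 µM ENZ alone (ENZ), 6 of the 24 libraries of the series. The other libraries cover DMSO and DHT in RES-A and the same 4 treatments in parental LNCaP, with 3 libraries in each of the 8 groups, described as biological triplicates. FAIRE-seq reads open chromatin: after cross-linking and shearing, a phenol extraction holds back DNA wrapped in nucleosomes, and the free DNA left in the water phase is sequenced. Before treatment, which lasted 18 h, all cells spent 3 days in charcoal-stripped serum (5% of the medium), which is low in steroids. All RES-A cells, those of the DMSO and DHT groups included, also received 10 µM ENZ during these 3 days, and parental cells did not. RES-A libraries without ENZ therefore come from cells from which the drug was withdrawn. Whether RES-A is a single clone is not given in the sources used here.

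The androgen receptor is a transcription factor that DHT activates. After binding the hormone it enters the nucleus and binds enhancers and promoters, where nucleosomes are displaced and chromatin becomes open. ENZ competes with androgens for the hormone pocket of the receptor and hinders its entry into the nucleus and its binding to DNA. The comparison therefore addresses whether androgen still changes open chromatin in resistant cells while the receptor is under its inhibitor. The lists hold regions without gene names and their positions are in hg19, so genes and sequence motifs at the regions were not analysed here.

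In RES-A under ENZ, DHT raised the height of 1415 open regions and lowered that of 117, out of 116127 regions with a peak in all 6 libraries. These are 1.22% and 0.101% of the regions tested (limma, Benjamini-Hochberg adjusted p under 0.05). The median difference was 0.83 on the log2 scale among the regions that rose and −0.68 among those that fell, while it was −0.01 over all regions tested. A log2 difference of at least 1, that is 2 times the height, was found in 306 regions, all of them past the threshold and all higher with DHT. No region had fallen by as much. Almost all regions that rose in RES-A under ENZ and could be tested there also rose with DHT alone, in libraries that the comparison did not use.

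The 6 lists held from 184636 to 240262 peaks, of which 0.369% to 0.446% lay on unplaced sequence or mitochondrial DNA and were left out. On the chromosomes the ENZ libraries had 195357, 239293 and 186091 peaks and the DHT+ENZ libraries 183955, 191690 and 215975. The ranges overlapped, and the groups differed by −9707 peaks, less than the SD of either group (206914 ± 28422 against 197207 ± 16708 peaks, SD, n = 3 each). The exact two-sided permutation test gave p = 0.6, where the smallest possible p is 0.1. Without ENZ replicate 2, the library with the most peaks, DHT+ENZ had 6483 more peaks than ENZ. Read totals were not used here. The genome-wide background of the peak caller, taken here only as a guide to depth, was 2.27, 4.48 and 2.57 reads per base in ENZ and 2.18, 2.80 and 3.76 in DHT+ENZ. Neither group had the higher background throughout. Among the parental libraries used below, LNCaP ENZ replicate 1 stood apart, with a background of 0.406 and 72950 peaks. The other 5 LNCaP libraries given ENZ, with or without DHT, had backgrounds of 3.29 to 5.70 and at least 197482 peaks.

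Peak height was the pileup at the summit, that is the number of fragments that overlap the highest base of a peak. Pileups were put on a log2 scale and made comparable by quantile normalisation over the 6 libraries. At an unadjusted p under 0.05, 6817 regions were higher and 5456 lower, counts that include the 1415 and 117 past the threshold. Of all regions tested, 7.49% had all 3 DHT+ENZ values above all 3 ENZ values and 7.03% had all of them below. The same held for 1404 of the 1415 regions that rose and for 115 of the 117 that fell, which the test itself had chosen. The smallest log2 differences past the threshold were 0.35 and −0.35, and the largest were 1.69 and −0.96. The count depended on the measure, since on the authors' fold enrichment in place of pileup 332 regions rose and 24 fell, and without a trend of variance on height 513 rose and 12 fell. It depended on single libraries too. Without ENZ replicate 2, DHT+ENZ replicate 1 or DHT+ENZ replicate 2 the regions that rose numbered 806, 873 and 778, and without ENZ replicates 1, 2 or 3 or DHT+ENZ replicate 2 those that fell numbered 20, 29, 31 and 46.

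**Figure D1:**
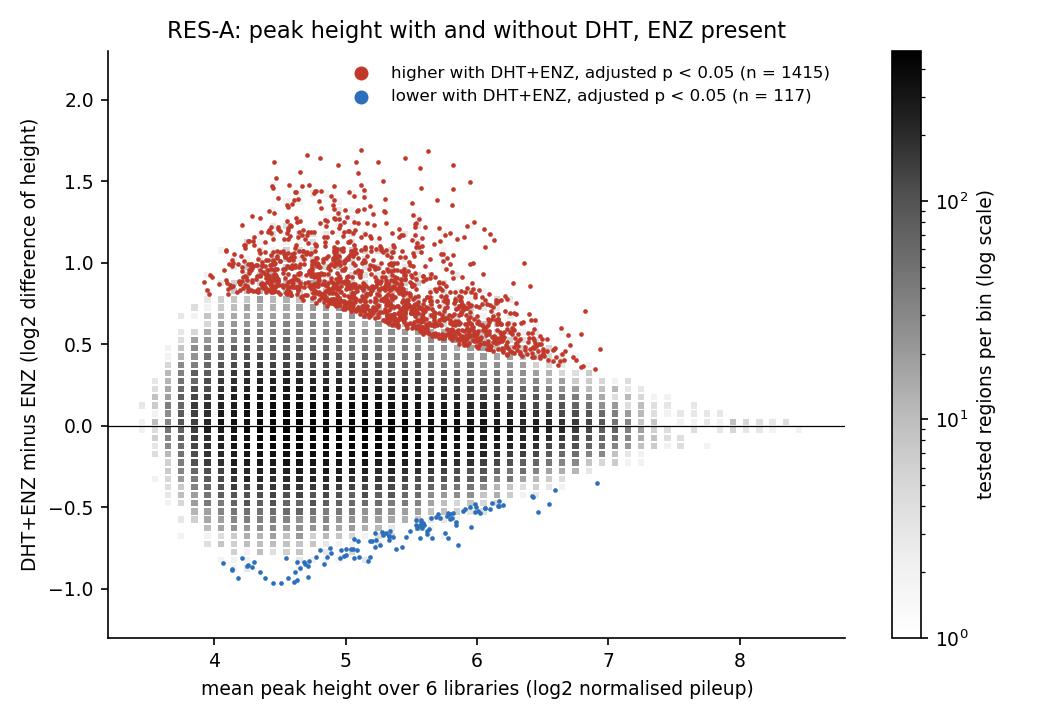
Difference of peak height between DHT+ENZ and ENZ in RES-A (y axis, log2) against the mean height over the 6 libraries (x axis, log2 normalised pileup). Grey squares count all 116127 tested regions per bin, red points are the 1415 regions that rose and blue points the 117 that fell, and the red points reach 1.69 while no blue point is below −0.96.

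The regions that rose and those that fell had different starting heights. Regions that rose had a median normalised pileup of 28.6 in ENZ, below the 32.2 of all regions tested, and of 52.2 in DHT+ENZ. Regions that fell had a median of 52.0 in ENZ and of 32.4 in DHT+ENZ. With DHT, the first set thus stood above the median of all regions, and the second set was close to it. These heights are from the libraries that chose the regions. The regions were somewhat longer than all regions tested, with medians of 489 bp for those that rose, 452 bp for those that fell and 407 bp overall. The share that rose was 0.418% in the lowest quintile of mean height and 1.67% in the 4th of the 5 quintiles. The median SE of the difference fell from 0.23 in the lowest quintile to 0.13 in the highest, so smaller differences could pass at tall peaks.

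The 10 regions with the largest rise had 3.03 to 3.23 times the height with DHT (log2 differences of 1.60 to 1.69). At chr8:81464427-81464875 (449 bp), the first of them, the deposited pileups were 19, 27 and 17 in ENZ and 59, 64 and 52 in DHT+ENZ. After normalisation the values were 21.8, 17.6 and 18.7 against 67.5, 70.6 and 50.8. The groups did not overlap, as the choice of named regions required. The lowest DHT+ENZ value was well above the highest ENZ value (log2 difference 1.69, SE 0.19, adjusted p = 1.48e-08). The most even values were those of chr1:96354578-96355238 (661 bp), with 28.7, 26.7 and 27.2 in ENZ and 92.3, 88.0 and 85.1 in DHT+ENZ (log2 difference 1.68, SE 0.15, adjusted p = 2.1e-11). There the spread within each group was small against the distance between them. The tallest of the 10 was chr1:218823924-218824323 (400 bp), at 35.4, 32.6 and 29.3 in ENZ and 102, 87.0 and 106 in DHT+ENZ (log2 difference 1.60, SE 0.14, adjusted p = 2.1e-11).

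Low peaks were also among them. The region chr11:10691667-10691979 (313 bp) had 12.9, 11.8 and 12.9 in ENZ and 39.7, 43.9 and 32.6 in DHT+ENZ (log2 difference 1.62, SE 0.22). Values within a group varied most at chr12:57672238-57672653 (416 bp), where ENZ gave 29.8, 15.8 and 11.8 and DHT+ENZ 64.01, 48.4 and 49.7 (log2 difference 1.60, SE 0.22, adjusted p = 3.2e-06). The absence of overlap between the groups was a condition of the choice there too. The log2 difference was 1.66 at chr13:29088014-29088426, 1.64 at chr15:61994920-61995301 and 1.64 at chr6:10950172-10950801. It was 1.62 at chr1:212306613-212307047 and 1.61 at chr6:36316957-36317489. All 10 stayed past the threshold under each alternative in which they could be tested, leaving out any of the 6 libraries included.

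The 10 regions with the largest fall had 1.84 to 1.95 times the height without DHT, and their adjusted p ran from 0.00753 to 0.0263 (limma). First among them was chr1:196087239-196087529 (291 bp), with 34.4, 23.9 and 34.4 in ENZ and 12.9, 18.7 and 15.8 in DHT+ENZ (log2 difference −0.96, SE 0.23). The smallest adjusted p was that of chr4:108735891-108736408 (518 bp), which had 35.4, 29.5 and 37.5 in ENZ and 15.4, 17.6 and 19.7 in DHT+ENZ (log2 difference −0.96, SE 0.22, adjusted p = 0.00753). All 3 values with DHT were below all 3 without it, as the choice of named regions required. At chr6:43463178-43463727 (550 bp) the heights were 32.1, 28.7 and 43.9 in ENZ and 20.4, 18.7 and 14.9 in DHT+ENZ (log2 difference −0.94, SE 0.22). The least spread within ENZ was at chr8:17770182-17770431 (250 bp), with 25.2, 24.95 and 24.95 against 11.8, 12.9 and 14.9 (log2 difference −0.93, SE 0.22). With DHT each value was below 17.9, the median height of the lowest quintile. Further falls were −0.96 at chr16:50300824-50301132, −0.94 at chrX:62952968-62953285 and −0.90 at chr7:137616577-137617153. The last of the 10 were −0.89 at chr10:114378628-114378953, −0.88 at chr4:1797090-1797375 and −0.88 at chr4:120008313-120008596. These calls were less firm than the rises: of 60 fits that left out 1 library, 40 put a region of the 10 above the threshold of 0.05, all with the difference still negative.

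**Figure D2:**
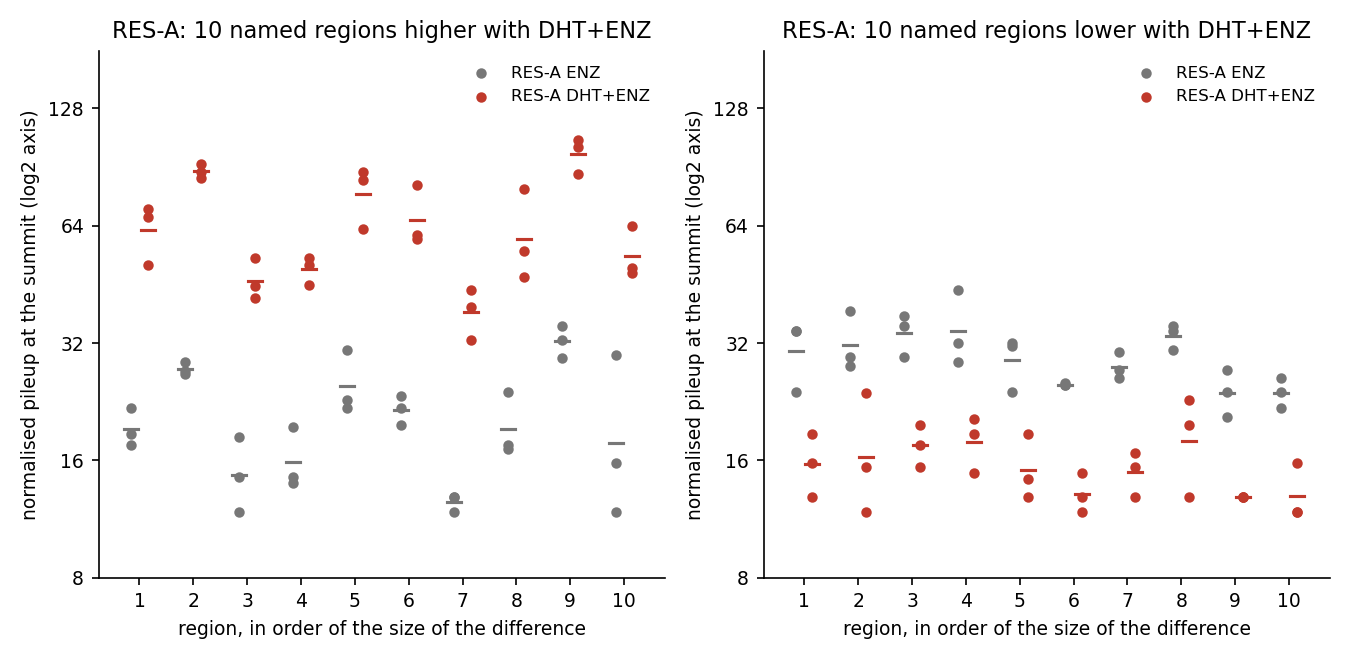
Normalised pileup at the summit (y axis, log2 scale) in each of the 3 ENZ libraries (grey) and 3 DHT+ENZ libraries (red) of RES-A, at the 10 regions with the largest rise (left) and the 10 with the largest fall (right), numbered by the size of the difference. Points are libraries and bars are means on the log2 scale, and the groups do not overlap at any of the 20 regions, which were chosen for that.

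Regions that rose were spread over all chromosomes. Their share of the regions tested was lowest on chr19, with 11 of 2663 (0.413%), and highest on chr18, with 50 of 2808 (1.78%). They stood mostly alone: 1245 had no other such region within 50 kb, 72 groups held 2, 6 groups held 3 and 2 groups held 4. Of the 7639 tested regions that had another region that rose within 50 kb, 170 rose (2.23%), against 1.22% of all. The groups with the most such regions were chr1:169437159-169514996, where 4 of 11 tested regions rose by 0.50 to 0.93, and chr3:127960528-128065798, where 4 of 13 rose by 0.48 to 0.87. Larger differences were seen at chr3:155852141-155894301, where 3 of 6 regions rose by 0.82 to 1.14. None of the 117 regions that fell had another within 50 kb. Of the 728 tested regions near one that fell, 0 fell, against 0.101% of all, so these numbers are too small to compare.

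The same regions were then read in RES-A without ENZ, by comparing 3 DHT with 3 DMSO libraries, none of which served to choose them. There DHT raised 10.7% and lowered 9.86% of 105481 regions (11332 and 10403). Of the 1415 regions that rose under ENZ, 1266 had a peak in all 6 of these libraries and could be tested, and 1215 of them (96.0%) rose with DHT alone and 0 fell. None was lower at an unadjusted p under 0.05, and 1233 were higher. The median log2 difference of the 1266 regions was 1.23, with 99.3% above 0. Over the 98017 regions tested in both comparisons the median was −0.05, with 43.5% above 0. Of the 117 regions that fell under ENZ, 107 could be tested, of which 68 (63.6%) fell with DHT alone and 0 rose (78 and 0 at an unadjusted p under 0.05), with a median of −0.56. On fold enrichment the latter count was 33, and without DMSO replicate 3 it was 43.

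The differences with DHT were larger without ENZ at most of the regions that rose. At the 1266 regions the median log2 difference was 0.80 with ENZ present and 1.23 without, that is 1.74-fold against 2.34-fold, and the difference was smaller with ENZ at 1099 of them (86.8%), although they were chosen on the former. At the 107 regions that fell, the medians were −0.66 with ENZ and −0.56 without, and the size was smaller with ENZ at 43 (40.2%). Over all 98017 regions tested in both it was smaller with ENZ at 66180 (67.5%). Across all 98017 regions the log2 differences of the 2 comparisons had a Pearson r of 0.53 and a Spearman rho of 0.42, given as a description, since regions are not independent replicates and each comparison repeats its 6 libraries at every region.

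**Figure D3:**
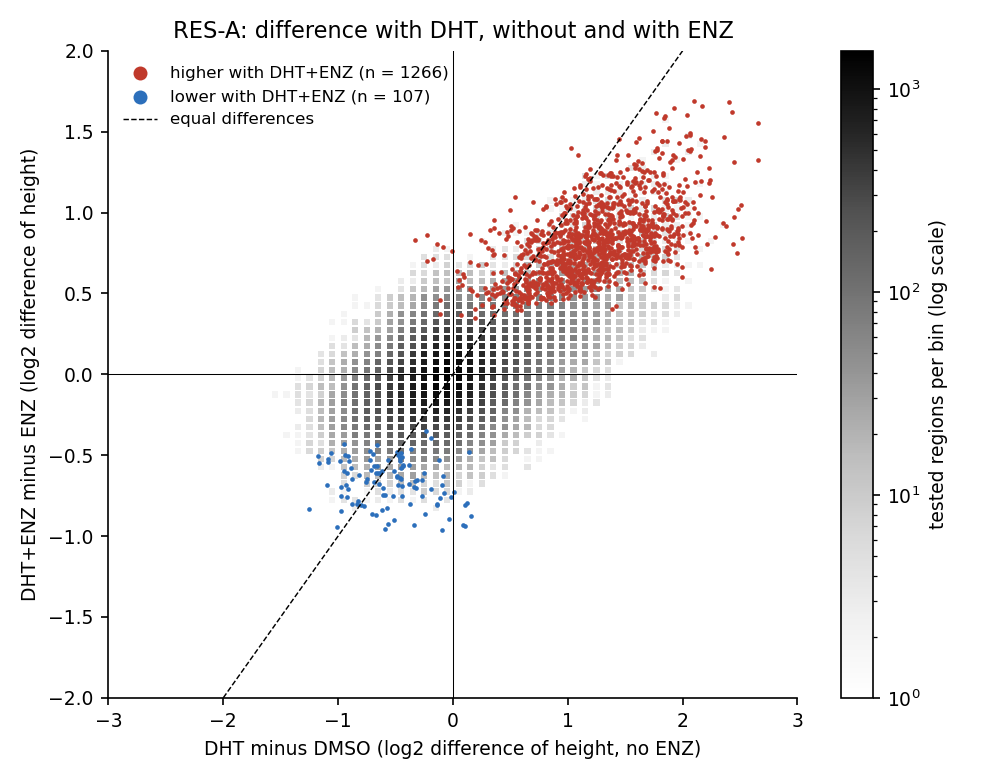
Log2 difference of peak height in RES-A between DHT+ENZ and ENZ (y axis) against that between DHT and DMSO (x axis). Grey squares count all 98017 regions tested in both, red and blue points are the 1266 and 107 regions that rose or fell under ENZ, the dashed line marks equal differences, and most red points lie to its right.

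Heights in the 12 RES-A libraries, normalised together, show the same regions by group. The median over the 1266 regions was 29.2, 27.3 and 28.6 in the DMSO libraries, 30.004, 29.0 and 29.8 in ENZ, 54.8, 53.6 and 52.4 in DHT+ENZ and 70.8, 69.9 and 68.8 in DHT. The group means were 28.4 ± 1.0, 29.6 ± 0.52, 53.6 ± 1.2 and 69.8 ± 1.0 (SD, n = 3 each). The DMSO and ENZ ranges overlapped, and each of the others stood clear of its neighbours. Over all 98017 regions the medians lay between 35.0 and 35.7 in every library. Mean height ran in the order ENZ, DHT+ENZ, DHT at 1141 of the 1266 regions (90.1%). The step up from ENZ to DHT+ENZ was set by the choice of these regions, and the share over all regions was not counted. The 107 regions that fell had medians of 46.3, 47.7 and 47.9 in DMSO and 54.5, 52.4 and 53.7 in ENZ. They had 34.1, 32.8 and 35.4 in DHT+ENZ and 30.3, 32.9 and 33.6 in DHT, where the ranges overlapped. The ENZ and DHT+ENZ libraries had chosen these regions, so that only the DMSO and DHT heights are independent of the choice.

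**Figure D4:**
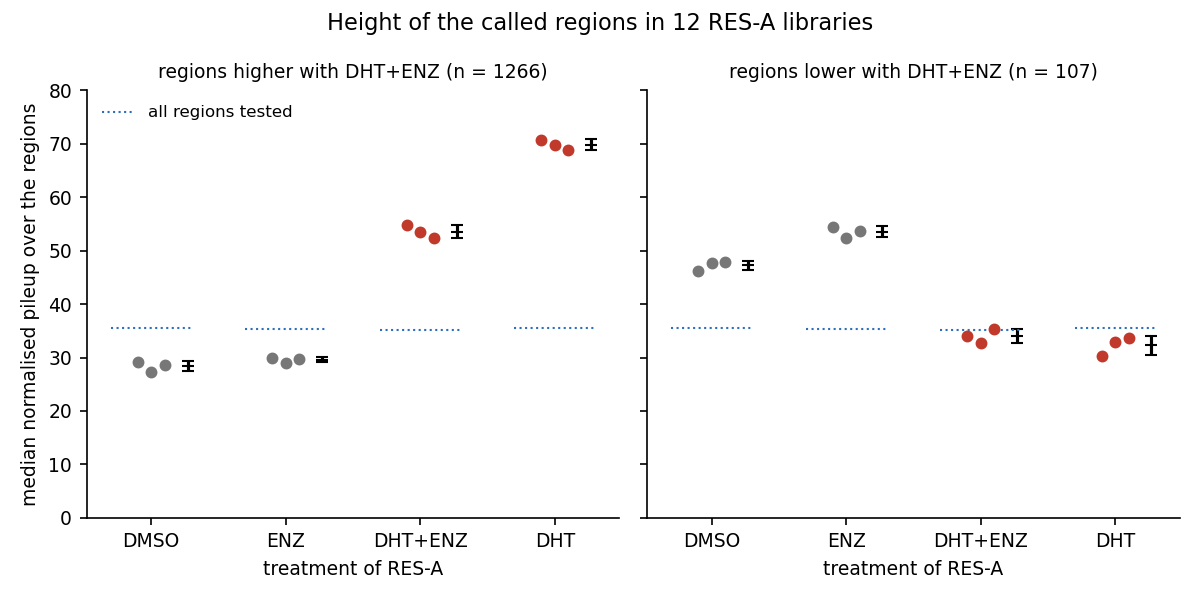
Median normalised pileup (y axis, from 0) over the regions that rose (left, 1266) or fell (right, 107) with DHT+ENZ, in each of 12 RES-A libraries by treatment. Points are libraries, black bars are mean ± SD of 3 libraries and dotted lines the median of all 98017 regions, and on the left DHT+ENZ lies between ENZ and DHT.

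A pair of further comparisons share libraries with this one and are not independent of it. Between DHT+ENZ and DHT, 3.66% of 106697 regions were higher with both agents and 5.11% lower. Of the regions that rose with DHT under ENZ, 1412 could be tested, of which 560 were lower with DHT+ENZ than with DHT and 0 higher (827 and 11 at an unadjusted p under 0.05), with a median of −0.37. Between ENZ and DMSO, 18 of 121101 regions were higher with ENZ (0.0149%) and 27 lower (0.0223%). The regions that rose had a median of 0.05 there, with 1 of 1269 lower. The regions that fell with DHT under ENZ had a median of 0.09 between DHT+ENZ and DHT, where 8 of 107 were higher and 5 lower. Between ENZ and DMSO they had a median of 0.18, and 110 of 116 (94.8%) were above 0, against 49.8% of the 110240 regions tested in both. None of the 116 passed in limma, while 26 were higher and 0 lower at an unadjusted p under 0.05 (4333 and 3842 of the 110240). These regions were chosen for greater height in the same ENZ libraries, which favours this direction.

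The regions that changed with DHT alone were then taken as the start, as calls made without the ENZ and DHT+ENZ libraries. The regions themselves were merged from the peaks of those libraries, so sites with no peak in any of them are not covered. Of 11332 regions that rose and 10403 that fell, 10544 and 10296 had a peak in every ENZ and DHT+ENZ library and could be tested under ENZ. The first had a median log2 difference of 0.26 under ENZ (1.20-fold), 87.3% of them were above 0 and 1215 (11.5%) rose, against 1.22% of all regions tested under ENZ. Regions that rose with DHT alone by a log2 difference of at least 1 (3161) had a median of 0.49 under ENZ and 27.8% passed. For a difference of at least 2 the median was 1.02 under ENZ, and 60 of 75 regions passed. The 10296 regions that fell with DHT alone had a median of −0.15 under ENZ, 81.1% of them were below 0 and 68 fell (0.66%), against 0.101% of all regions tested under ENZ. The 567 regions that fell with DHT alone by a log2 difference of at least 1, with a median of −1.09, had a median of −0.23 under ENZ and 8 passed.

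The difference between the effects of DHT with and without ENZ was tested itself, as an interaction over the 12 RES-A libraries. It was positive, that is the change with DHT was more upward under ENZ, at 823 of 98017 regions (0.84%) and negative at 1552 (1.58%). At all 1552 regions of the second kind the difference with DHT in the absence of ENZ was above 0, with a median of 1.25, and 1528 had risen, while the median was 0.22 under ENZ. At all 823 of the first kind it was below 0 in the absence of ENZ, with a median of −0.86, and 806 had fallen, while the median was 0.01 under ENZ. The change was larger in size without ENZ at 1532 and 809 of them. The change with DHT alone is a term of the interaction, so the choice of regions favours these signs and sizes. Over all 98017 regions the change with DHT alone was above 0 at 43.5%, and the change was smaller in size with ENZ at 67.5%. Among the 1266 regions that rose under ENZ, 158 were past the threshold on the negative side and 3 on the positive side, with a median of −0.39, and among the 107 that fell there were 2 and 0 (17 and 8 at an unadjusted p under 0.05). On fold enrichment 10 regions passed on each side. The positive count was 417 without ENZ replicate 1, 519 without ENZ replicate 3, 509 without DHT+ENZ replicate 2, 461 without DMSO replicate 2 and 543 without DMSO replicate 3. The negative count was 966 without ENZ replicate 1, 1032 without DHT+ENZ replicate 2, 929 without DHT replicate 1 and 979 without DHT replicate 2.

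Individual regions show the different degrees. At chr1:96354578-96355238, where DHT under ENZ gave a log2 difference of 1.68, DHT alone gave 2.41. The interaction was −0.70 and did not pass (limma, adjusted p = 0.0841). At chr6:36316957-36317489 the differences were 1.61 with and 1.77 without ENZ, an interaction of −0.14 (limma, adjusted p = 0.89). Among the 10 named regions that rose, the 8 that could be tested had all risen with DHT alone, by 1.77 to 2.43, and none of their interactions passed. Of the 10 named regions that fell, 7 could be tested without ENZ, where 2 also fell and none rose, with differences from −1.01 to 0.10. The 2 were chr6:43463178-43463727 (−1.01) and chr4:108735891-108736408 (−0.59).

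In parental LNCaP under ENZ, 0 of 46499 regions (0%) passed in either direction when DHT+ENZ was compared with ENZ (limma), while 1479 were higher and 863 lower at an unadjusted p under 0.05. The test required a peak in every library and was limited by LNCaP ENZ replicate 1, with its few peaks and low background. Of the regions that rose in RES-A, 705 could be tested, with a median log2 difference of 0.43 in LNCaP and 96.6% above 0, and 359 were higher and 0 lower at an unadjusted p under 0.05. The median was 0.78 in RES-A at the same regions, and over all 41937 regions tested in both the LNCaP median was 0.00, with 49.9% above 0. Of the regions that fell in RES-A 60 could be tested, with a median of −0.07 in LNCaP and 58.3% below 0. Without LNCaP ENZ replicate 1, an alternative chosen after seeing the data, 337 of 109277 regions rose (0.308%) and 9 fell (0.00824%). Of the 1415 regions, 1301 could then be tested and 111 rose, with a median of 0.40 and 95.5% above 0. Of the 117, 98 could be tested and 0 fell, with 10 lower at an unadjusted p under 0.05 and a median of −0.15. Of the 10 named regions that rose, 9 could then be tested and 5 rose in LNCaP. The largest of these LNCaP differences was 1.002, at chr1:96354578-96355238.

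The difference between the 2 sublines was also tested itself. At 0 of 41937 regions did the effect of DHT under ENZ differ between RES-A and LNCaP in either direction (0%, limma), with 754 and 688 regions at an unadjusted p under 0.05. The median SE of this difference was 0.28 on the log2 scale. Without LNCaP ENZ replicate 1, 2 regions were more positive in RES-A and 1 more negative, of 84472. At the 705 regions that rose in RES-A the median of RES-A minus LNCaP was 0.23, and at the 60 that fell it was −0.49, both in the direction that the choice of regions on RES-A favours. The smallest unadjusted p on the positive side belonged to chr1:218823924-218824323, with differences of 1.60 in RES-A and 0.50 in LNCaP (adjusted p = 0.966). On the negative side it belonged to chr13:113540116-113540641, with −0.73 in RES-A and 0.41 in LNCaP (adjusted p = 0.966).

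Presence and absence of peaks were compared over the 50000 peaks of each library with the highest −log10 p, so that each library contributed the same number. These formed 68553 merged regions, of which 33282 had a top-ranked peak in all 6 libraries. A top-ranked peak in all 3 DHT+ENZ and no ENZ library was found at 851 regions (1.24%), and the opposite at 525 (0.766%). The balance turned with all deposited peaks, where 905 of 378258 regions (0.239%) were called with DHT+ENZ only and 2056 (0.544%) with ENZ only. This comparison includes ENZ replicate 2, the library with the most peaks and the highest background of the 6, at its full length of list. Nearly all of the top-ranked differences were differences of rank. Of the 851 regions, 838 held a lower-ranked peak in all 3 ENZ libraries, and all 525 held one in all 3 DHT+ENZ libraries. Where 1 library was left out, so that 2 of 2 against 0 of 3 or 3 of 3 against 0 of 2 counted, the numbers were 1212 to 1491 and 976 to 1113.

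**Figure D5:**
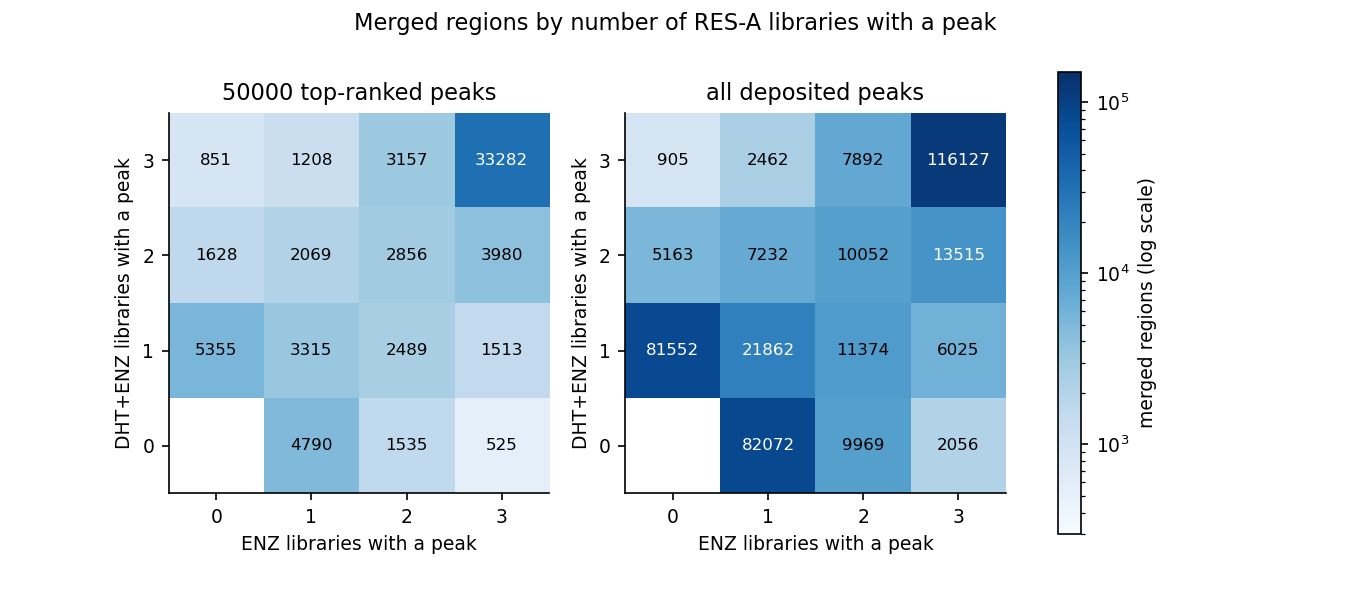
Number of merged regions by the number of ENZ libraries (x axis) and DHT+ENZ libraries (y axis) that hold a peak there, for the 50000 top-ranked peaks per library (left) and all deposited peaks (right), with colour on a log scale. The upper left corner holds 851 and 905 regions called with DHT+ENZ only, and the lower right corner 525 and 2056 called with ENZ only.

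These regions too were read in libraries that had no part in their choice. Of the 851 DHT+ENZ-only regions, 530 (62.3%) had a top-ranked peak in all 3 RES-A DHT and no RES-A DMSO library, against 2787 (4.07%) of all 68553 regions, and 0 had the opposite pattern. The 530 are 19.0% of those 2787. Of the 525 ENZ-only regions, 88 (16.8%) had a top-ranked peak in all 3 DMSO and no DHT library, against 2447 (3.57%) of all, and 5 had the opposite pattern. The 88 are 3.6% of those 2447. In LNCaP under ENZ, 57 of the 851 regions (6.7%) had a top-ranked peak in all 3 DHT+ENZ and no ENZ library, against 0.626% of all. This count includes LNCaP ENZ replicate 1, the library with few peaks and low background.

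The highest ranked of the regions with no peak of any rank in the other group were as follows. The first of those called with DHT+ENZ only was chr3:52903626-52903937 (312 bp), with fold enrichments of 6.44, 6.35 and 5.73 over the expected pileup in the 3 DHT+ENZ libraries and no peak in any ENZ library. It was also called in 3 RES-A DHT and 0 RES-A DMSO libraries. Next came chr1:219691557-219691978, at 6.73, 4.52 and 4.55, and chr7:8279774-8280093, at 6.41, 6.96 and 5.56, both called in 3 RES-A DHT libraries and 1 RES-A DMSO library. In LNCaP the 3 regions were called without DHT too, each in 3 DMSO libraries and, in the order given, in 2, 2 and 3 ENZ libraries. Called with ENZ only, chr12:93292483-93292676 (194 bp) had fold enrichments of 5.44, 4.28 and 5.14. It was followed by chr3:177271437-177271837, at 5.19, 4.51 and 5.32, which had a peak in 2 RES-A DMSO libraries and in no RES-A DHT library. It had no peak in any LNCaP library, whatever the treatment. The last, chr3:128067676-128067927, at 3.83, 2.996 and 3.73, begins just past the end of the group of 4 regions that rose on the same chromosome.

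Base-pair overlap of the top-ranked peaks was slightly higher within groups than between them. The Jaccard index, the shared over all covered base pairs, was 0.663 ± 0.0040 for the 3 pairs of ENZ libraries, 0.654 ± 0.0061 for the 3 pairs of DHT+ENZ libraries and 0.638 ± 0.0051 for the 9 pairs between groups (SD over pairs, which share libraries). The highest index between groups, 0.645, was below the lowest within a group, 0.647. The split by treatment held 25.3% of the variance of 1 minus the index (permutational analysis of variance on distances, exact permutation test, p = 0.1, the smallest that 3 against 3 libraries allow). With all deposited peaks it held 21.4%. Random splits of 6 libraries into 2 groups also hold some share, which was not subtracted, so these values are not the effect of treatment alone.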

How the data were processed

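FAIRE-seq libraries of 50-bp single-end reads were aligned by the authors to hg19 with BWA 0.7.8-r455, duplicates were marked with Picard 1.118, and peaks were called in each library separately with MACS2 2.1.0. The MACS2 options, and whether a control library was used, are not given in the sources used here. For each peak the deposited lists give the position, the summit pileup (a signal that counts fragments over the highest base and is not scaled to depth), the fold enrichment (a ratio over the expected pileup) and the −log10 of a p-value and q-value, unchanged from the authors' MACS2 output. The largest q was below 0.05 and the shortest peak 100 bp. Read depth is unknown, and the background was recovered as (pileup + 1) / fold − 1, taking the smallest value of a library, on the assumption that 1 had been added to both.

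Groups came from the labels. The members and lists were chosen with earlier results of these data known. Peaks on chromosomes 1 to 22, X and Y that shared at least 1 bp were merged over the 6 lists. The highest pileup of each region was put on the log2 scale with no pseudocount, quantile-normalised and tested with limma (lmFit and eBayes with a variance trend) where every library had a peak, with an adjusted p under 0.05. The filter leaves out regions without a peak in some library, which the presence comparison covers. Other comparisons used the same regions with the highest overlapping peak of each library. Regions named are, per direction, the 10 that passed the threshold without overlap between groups and differed most, the 3 with the smallest p for each interaction, and the 3 peaks present in every library of 1 group and absent from the other whose lowest percentile of −log10 p was highest. Same-numbered libraries of ENZ and DHT+ENZ deviated together only weakly (correlations of 0.02, 0.04 and 0.09), and the main fit did not use the numbers as pairs. A fit with the replicate number as a block is given below. Comparisons of 3 against 3 libraries without limma used exact two-sided permutation tests. Scripts were tested on simulated data and the merging was checked against bedtools. Python 3.11.15 (numpy 2.4.6, pandas 2.3.3, scipy 1.17.1) and R 4.3.3 (limma 3.58.1) were used. On 15 of 24 chromosomes peaks reached past the GRCh38 end, the assembly at hand, so genes and motifs were not analysed here.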

Additional observations from a re-analysis of the deposited data

Results flagged for a closer look

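The effect of DHT on peak height in RES-A differed with and without ENZ by a direct test of the interaction in limma, at 823 regions in the positive and 1552 in the negative direction. The 3 regions with the smallest p per direction are given with their mean normalised pileups in the 4 groups, each over 3 libraries.

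At chr2:118819433-118820085 the height was 71.9 in DMSO and 23.2 in DHT, but 72.1 in ENZ and 73.0 in DHT+ENZ (interaction 1.65, SE 0.21, adjusted p = 1.18e-06). The peak was low with DHT alone and alike in the other 3 groups. DHT alone was also the lowest group at chr1:117810758-117811195, with 90.4 and 35.8 without ENZ and 82.8 and 78.8 with it (interaction 1.27). The same was true at chr18:70592491-70592995, with 54.4 and 15.4 against 49.4 and 46.7 (interaction 1.74). At both of these, ENZ and DHT+ENZ were somewhat below DMSO.

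On the negative side, chr17:19171901-19172246 had 25.6 in DMSO and 106 in DHT, but 33.1 in ENZ and 35.5 in DHT+ENZ (interaction −1.95, SE 0.24, adjusted p = 3.09e-07). At chr1:145246169-145246592 the heights were 71.5 and 187 without ENZ and 89.4 and 120 with it (interaction −0.96). The values at chr12:28431396-28431845 were 16.7 and 92.1 without ENZ and 29.7 and 50.2 with it (interaction −1.71). The last 2 regions also rose under ENZ, by 0.42 and 0.75 (limma, adjusted p = 0.0108 and 0.0136). On fold enrichment 2 of the 6 regions stayed past the threshold, and under median centring, the replicate block and leaving out each of the 12 libraries all 6 did.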

How the results depend on the processing

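The regions that rose or fell under ENZ kept their direction at all 1415 and 117 under median centring and on fold enrichment. The replicate block and the fit without a variance trend do not alter the fitted difference. The 1415 and 117 counts became 1296 and 176 under median centring, 332 and 24 on fold enrichment, 513 and 12 without the variance trend, and 398 and 35 among 50000 top-ranked peaks, where fewer regions were tested (33282). Leaving out 1 library gave 778 to 1061 and 20 to 171. With the replicate block, pairing same-numbered libraries, 1609 rose and 192 fell, and all 1532 earlier calls were kept. The block left the difference in peak number at −9707 (exact sign-flip permutation test, p = 0.75) and the share of variance in overlap at 25.3% (exact permutation p = 0.25), where 3 pairs allow no p below 0.25. It gave 960 and 1784 regions for the interaction with ENZ. The difference in peak number ran from 6483 without ENZ replicate 2 down to −20118 without ENZ replicate 3. The interaction with ENZ gave 10 and 10 regions on fold enrichment, 417 to 897 and 929 to 1380 when 1 library was left out. That with subline gave 0 to 2 and 0 to 1. Top-ranked differences in presence were 498 and 316 with 25000 peaks and 905 and 2056 with all deposited peaks, and leaving out 1 library gave 1212 to 1491 and 976 to 1113, a looser rule by construction. Of alternatives chosen after seeing the data, fold enrichment left 33 of the 68 regions that fell under ENZ and with DHT alone, leaving out 1 library left 43 to 61, and 0 to 111 of the 1415 regions also rose in LNCaP with 1 library left out. The cause of these changes was not tested. Among refits of the named regions all 140 passed for those that rose, and 88 passed and 50 did not for those that fell. Results planned for genes and motifs were not run. Depth is unknown, and low peaks had the larger errors.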
